A study of Mus musculus with 42 samples.

Results

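This account follows mCherry+/GFP- cells of the totalx2 reprogramming series between day 8 and day 10, across all genes. It compares the 3 libraries whose source label is Day 10 totalx2 mCherry+/GFP- with the 3 labelled Day 8 totalx2 mCherry+/GFP-, which is 6 of the 42 libraries in the series. The series profiled sorted intermediates of mouse cells on the way to induced pluripotent stem cells (iPSCs), together with iPSCs and fibroblasts. Both groups carry the same alleles: a cross of B6- Tet1tm1.1Koh with B6;129S4-Pou5f1tm2Jae/J, genotype Tg(mCherry)/wt; Tg(GFP)/wt, male, and both are labelled Stage I intermediates. Each group holds 1 sorted fraction from each of 3 independent lines, named 73E6, 73E7 and 73E8 and here called lines 1, 2 and 3, so every line was sampled on both days. The spread used in the tests was also estimated from the other totalx2 groups and from wild-type and Tet1 knockout iPSC clonal lines. The animals' age, the way reprogramming was induced and the meaning of totalx2 are not given in the sources used here. Pou5f1tm2Jae places GFP at Pou5f1, so the level of Pou5f1 is tied to the GFP- gate, and whether mCherry reads the Tet1 allele is not stated.

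When fibroblasts are reprogrammed, they first shut down mesenchymal genes and take on epithelial junctions and keratins, a change called the mesenchymal-to-epithelial transition, and only later switch on the network of pluripotency factors around Pou5f1, Nanog and Sox2. GFP from the Pou5f1 locus is a reporter of late intermediates, so GFP- cells are those in which it has not come on. Interferon-induced genes, which serve antiviral defence, are active at a basal level in fibroblasts and low in pluripotent cells.

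The 6 libraries were stranded polyA RNA-seq. They held 9696804 to 11633790 counts assigned to genes and 18927 to 19517 detected genes, and 2.52% to 3.27% of counts came from mitochondrially encoded genes. Values below are CPM, which are counts scaled to a common library size, on TMM-scaled totals, listed for lines 1, 2 and 3, and a gene was called where the Benjamini-Hochberg adjusted p of edgeR's quasi-likelihood test was below 0.05. A log2 fold change is day 10 minus day 8 with its standard error. The first principal component, with 62.5% of the variance, placed the day 8 libraries at -26.1, -50.7 and -32.8 and the day 10 libraries at 63.1, 32.8 and 13.7. The days did not overlap on it, and line 3 moved least between them.

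Marker panels were read as a check of the labelled state. The summed CPM of 7 fibroblast markers was 12550 to 19530 at day 8 and 2911 to 8183 at day 10, that of 5 epithelial markers 288 to 474 and then 567 to 708, and that of 6 pluripotency markers 395 to 506 and then 557 to 764. Most of the pluripotency sum was Pou5f1, which is tied to the GFP- gate. Neither Pou5f1 nor Nanog passed the main test, and 3 of the 6 pluripotency markers were called higher. Markers of other cell types were read as well: 8 leukocyte markers summed to 19.4 to 48.4 CPM at day 8 and 10.6 to 29.1 at day 10. The 4 endoderm markers summed to 0.82 to 1.54 CPM and then 0.09 to 0.59, with Sox17 and Foxa2 at 0 counts and Gata6 called lower. The 4 muscle markers summed to 0.72 to 1.23 CPM and then 2.27 to 2.95, with Myod1 and Myog at 0 counts and Des called higher. The 4 trophectoderm markers summed to 2.36 to 2.98 CPM and then 4.71 to 5.13. The 6 endothelial markers summed to 119 to 142 CPM at day 8 and 134 to 138 at day 10, with Tie1 and Vwf under 1 CPM. The 4 neuronal markers summed to 121 to 137 CPM and then 99.9 to 114, with Snap25 under 1 CPM; the part of these cell types in the results was not tested. Sox2 had 0 counts in all 21 libraries of the table; its gene lies wholly inside Sox2ot on the same strand, so nothing is read from it.

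Xist, the RNA that coats an inactive X chromosome in female cells, was present although all libraries are labelled male. Its level was 37.9, 48.9 and 22.7 CPM at day 8 and 2.38, 11.4 and 9.34 CPM at day 10, and the days did not overlap (log2 fold change -2.25 ± 0.41, adjusted p = 0.00089). With the lines as a block in the 6 libraries alone, its adjusted p was 0.056. The 4 Y-linked genes tested, among them Ddx3y at 91.6 ± 6.7 and 96.0 ± 11.1 CPM (SD, n = 3), did not pass the test; of them Kdm5d did with the lines as a block in the 15 totalx2 libraries (0.32, adjusted p = 0.0029). Xist moved in the same direction as the fibroblast and interferon genes described below, and its part in those results was not tested.

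Of 15197 genes tested, 3147 (20.7%) were called between day 8 and day 10, 1519 higher (10.0%) and 1628 lower (10.7%). The list counts below are to be read beside these shares. Falls were the larger changes: 812 of the lower genes and 493 of the higher genes changed at least 2-fold, and 180 and 110 at least 4-fold. The 3 libraries of each day did not overlap in 6155 genes (40.5%), 2997 of them called. The count leans on 3 libraries: without line 1 of day 10 it was 907 higher and 770 lower, without line 2 of day 8 it was 870 and 759, and without line 2 of day 10 it was 1189 and 996. With the lines as a block in the 15 totalx2 libraries, 2625 genes were higher and 2698 lower, and library totals without TMM scaling gave 1864 higher and 1293 lower. Leaving the wild-type iPSC library with the most mitochondrial counts out of the shared estimate of spread gave 2492 and 2164.

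**Figure D1:**
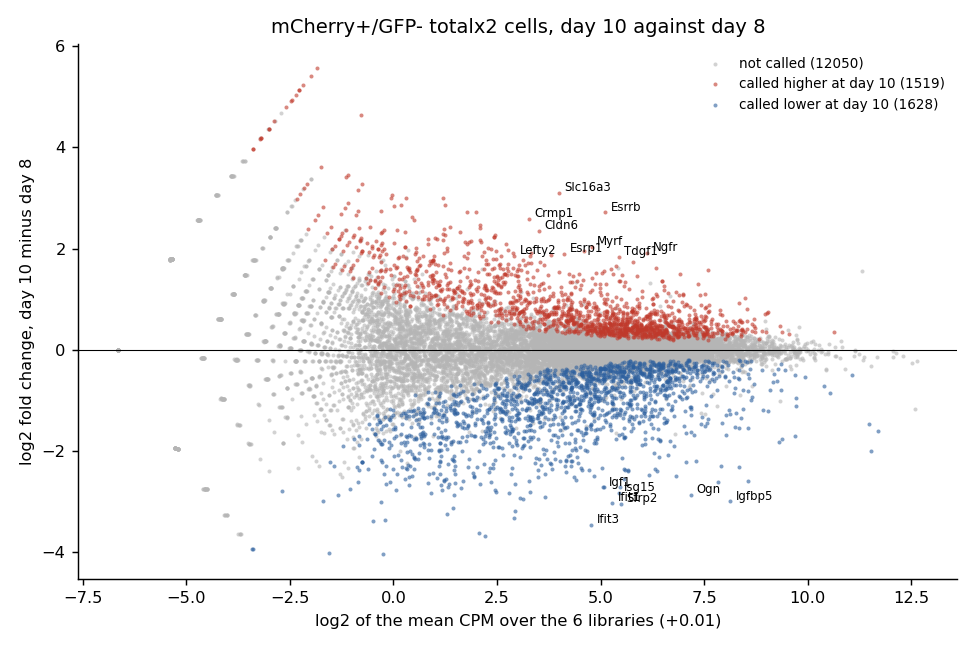
Each point is 1 of 15197 genes: the horizontal axis is log2 of its mean CPM over the 6 libraries (plus 0.01) and the vertical axis its log2 fold change, day 10 minus day 8, with the 1519 called rises in red, the 1628 called falls in blue and 16 of the genes with the largest changes named. The named falls lie between -3.47 and -2.72 and the named rises between 1.84 and 3.10.

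Interferon-induced genes fell in a block. Of 28 tested members, 26 were lower, none was higher, and the median log2 fold change was -1.79 against -0.005 over all genes. The members act at successive steps of the antiviral response: Irf7, Irf9 and Stat2 are among its transcription factors, Ifih1 senses viral RNA, and Ifit1, Ifit3, Isg15, Rsad2, Oas1a and Mx2 are effectors. Under the alternatives run, between 24 and 28 members were lower.

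The promoters of 3 of the strongest falls, of Rsad2 and of Bst2, which was not called, are shown because 10 of the 21 interferon-induced genes with a RefSeq promoter window (47.6%) hold the core of the interferon-stimulated response element. The letters searched were GAAANNGAAA on both strands, within 250 bases before the start, with overlapping matches joined. The last 160 bases before each start are given 5′ to 3′ on the gene's strand, from RefSeq on GRCm38.p6, with the matches in capitals; TTTC on either side of 2 bases is a match on the opposite strand.

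Ifit1, chr19:34640729-34640888, plus strand: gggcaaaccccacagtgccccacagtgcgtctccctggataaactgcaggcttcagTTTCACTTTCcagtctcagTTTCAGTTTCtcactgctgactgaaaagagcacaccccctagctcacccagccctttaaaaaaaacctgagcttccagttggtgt

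Ifit3, chr19:34583369-34583528, plus strand: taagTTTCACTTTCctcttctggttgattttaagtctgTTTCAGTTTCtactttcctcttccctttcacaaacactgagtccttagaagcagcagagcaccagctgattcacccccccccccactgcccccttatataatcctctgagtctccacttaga

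Isg15, chr4:156200819-156200978, minus strand: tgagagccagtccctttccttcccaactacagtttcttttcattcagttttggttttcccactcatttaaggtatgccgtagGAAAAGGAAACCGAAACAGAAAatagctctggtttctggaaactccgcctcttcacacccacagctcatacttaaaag

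Rsad2, chr12:26456453-26456612, minus strand: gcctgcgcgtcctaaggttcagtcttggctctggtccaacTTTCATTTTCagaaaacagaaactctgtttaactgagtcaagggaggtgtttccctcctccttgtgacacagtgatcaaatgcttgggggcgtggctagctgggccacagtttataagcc

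Bst2, chr8:71537473-71537632, minus strand: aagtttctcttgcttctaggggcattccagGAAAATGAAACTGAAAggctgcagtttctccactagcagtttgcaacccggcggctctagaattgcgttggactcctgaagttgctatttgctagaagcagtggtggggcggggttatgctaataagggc

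Ifit1 and Ifit3 hold 2 matches each, Isg15 a run of 3 overlapping matches, Rsad2 a single one and Bst2 a pair of overlapping ones, with a change of -0.61 that was not called. The same letters occur in 936 of 27025 windows over all genes (3.46%), in 332 of 10793 tested genes (3.08%), in 79 of 1186 genes called lower (6.66%) and in 35 of 1138 called higher (3.08%). Irf7 and Oasl2 have no match in their windows and fell by 2.71 and 2.36. A match is a description of the letters.

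Ifit3, which binds viral RNA with Ifit1, was at 40.3, 66.3 and 43.3 CPM at day 8 and 1.47, 5.75 and 6.31 CPM at day 10. All 3 day 10 libraries lay far below every day 8 library (log2 fold change -3.47 ± 0.38, adjusted p = 1.67e-05). Ifit3b, a near-identical copy, fell by 3.33, and reads of the pair may have been split between them. Ifit1 was at 58.4, 88.9 and 60.3 CPM and then 3.85, 7.26 and 14.4 CPM (-3.02 ± 0.37, adjusted p = 4.35e-05). The ubiquitin-like Isg15 was at 60.4, 91.5 and 75.7 CPM and then 5.49, 9.82 and 16.7 CPM (-2.83 ± 0.33, adjusted p = 3.34e-05). Line 1 was lowest at day 10 for Ifit1, Ifit3 and Isg15. All 3 genes were named by a rule that required the days not to overlap.

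Transcription factors on the same list were lower too. Irf7, the amplifier of the type I response, was at 47.2, 72.2 and 57.1 CPM and then 4.67, 9.65 and 12.62 CPM (-2.71 ± 0.33, adjusted p = 4.01e-05). Stat2 was at 66.1, 98.1 and 68.4 CPM and then 22.1, 29.8 and 40.1 CPM (-1.34 ± 0.18, adjusted p = 7.79e-05). Rsad2, an antiviral enzyme, fell by 2.51 and Oas1a, which makes the activator of RNase L, fell by 1.39. The 2 members not called were Bst2, a tether of virus particles, with -0.61 ± 0.22 (adjusted p = 0.056), and Ifi27 with -0.76; with the lines as a block in the 15 totalx2 libraries both were called (adjusted p = 8.80e-06 and 0.017). The median fall was 2.41 in line 1, 1.96 in line 2 and 1.32 in line 3.

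MHC class I genes, which present peptides on the cell surface, fell with them. Of 10 tested members 9 were lower, with a median of -1.44. B2m, the common light chain, was at 290, 431 and 346 CPM at day 8 and 93.0, 121 and 174 CPM at day 10, with no overlap (-1.46 ± 0.31, adjusted p = 0.0028). The heavy chain H2-K1 was at 81.2, 116 and 115 CPM and then 34.8, 36.5 and 60.8 CPM (-1.24 ± 0.22, adjusted p = 0.00083). H2-D1, the other classical heavy chain here, fell by 1.56, H2-T23, a nonclassical one, by 2.24, and Tapbp, which loads peptides, by 1.42. Nlrc5, the transactivator of these genes, was low throughout and fell from 5.11 ± 1.10 to 1.81 ± 0.78 CPM. Tapbp shares 25.5% of its gene with Zbtb22 on the same strand.

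**Figure D2:**
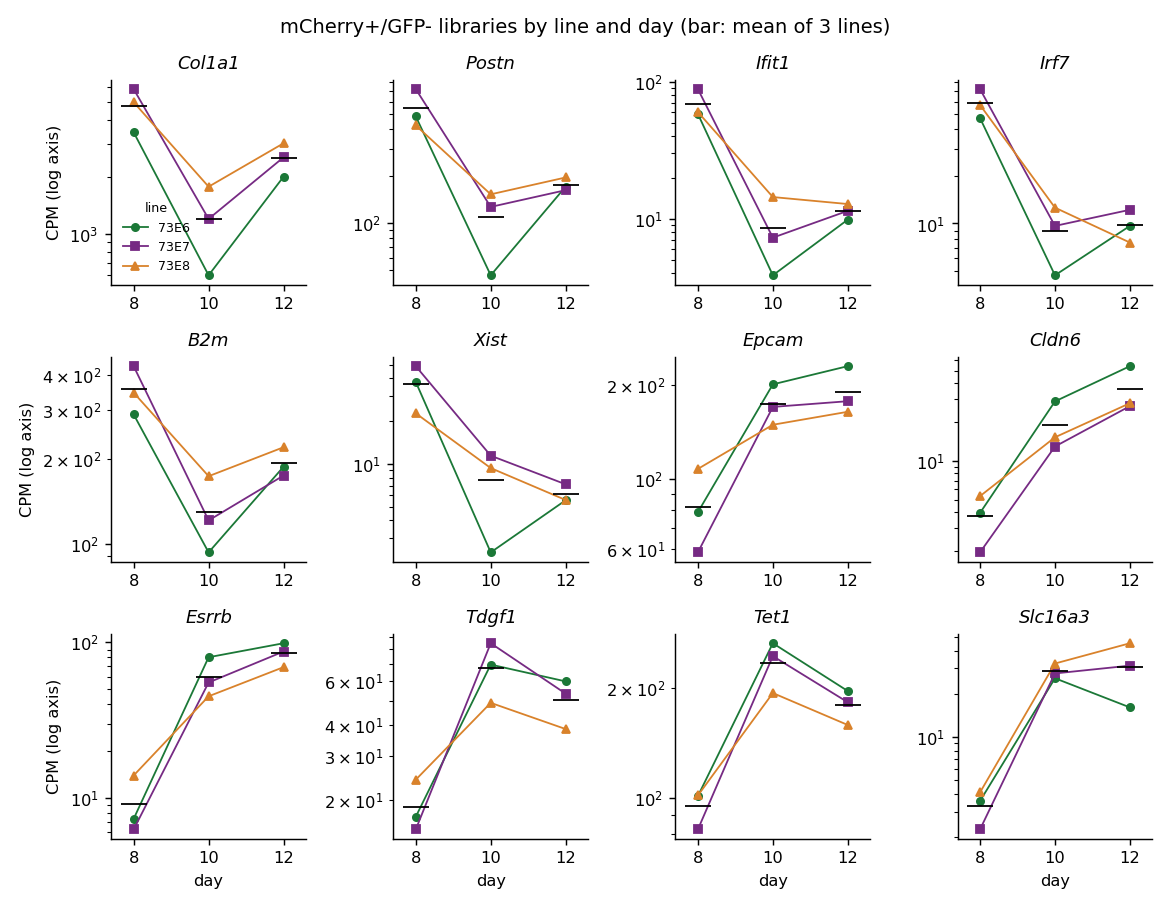
CPM of 12 genes on log axes against day (8, 10 and 12), 1 point per library, lines joined by colour and symbol, with a bar at the mean of the 3 lines. Ifit1, Irf7, B2m, Col1a1, Postn and Xist are lower in all 3 lines at day 10 than at day 8, and Epcam, Cldn6, Esrrb, Tdgf1, Tet1 and Slc16a3 are higher in all 3.

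Fibroblast and mesenchymal genes were the other large group that fell. Of 30 tested members 27 were lower and none higher, with a median of -1.26, and 20 to 29 were lower under the alternatives. In bulk RNA, fewer fibroblast-like cells and less RNA of these genes per cell cannot be told apart. The largest falls on the list were those of Dcn and Lox. Col1a1, the main chain of type I collagen, was at 3443, 5836 and 4971 CPM at day 8 and 600, 1195 and 1771 CPM at day 10. Line 1 was lowest on both days, and the days did not overlap (-1.999 ± 0.34, adjusted p = 0.00059). The collagen-binding proteoglycan Dcn was at 349, 534 and 298 CPM and then 27.3, 81.4 and 83.2 CPM (-2.62 ± 0.41, adjusted p = 0.00034). Lox, the collagen cross-linker, was at 513, 847 and 582 CPM and then 33.6, 116 and 171 CPM (-2.60 ± 0.47, adjusted p = 0.0012). The matrix protein Postn, at 483, 723 and 423 CPM and then 46.3, 127 and 153 CPM, fell by 2.32.

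Among regulators that hold the mesenchymal state, Snai2, Zeb1 and Zeb2 fell by less than Col1a1, Dcn, Lox and Postn. Snai2 moved further than the fibroblast list's median of -1.26. Snai2, a repressor of E-cadherin, was at 5.35, 9.14 and 9.83 CPM and then 1.56, 2.21 and 4.04 CPM (-1.63 ± 0.34, adjusted p = 0.0025). Zeb1 and Zeb2, repressors of epithelial genes, fell by 0.89 and 1.20, and N-cadherin, Cdh2, fell by 1.83; without line 1 of day 10 the adjusted p of Zeb1 was 0.052. Vimentin (Vim), a filament protein of mesenchymal cells, was at 1720, 2004 and 2044 CPM and then 822, 1018 and 1359 CPM (-0.85 ± 0.19, adjusted p = 0.0042). Fn1, fibronectin, stayed abundant at 1657, 1807 and 1882 CPM at day 10 (-0.50 ± 0.11, adjusted p = 0.0030). The 3 members not called were Thy1, Timp1 and S100a4, and Timp1 was called with the block of lines in the 15 totalx2 libraries (-0.34, adjusted p = 0.0079). The surface protein Thy1 was at 151, 204 and 178 CPM and then 63.6, 95.6 and 167 CPM. Line 3 at day 10 lay within the day 8 range (-0.71 ± 0.32, adjusted p = 0.13); without that library the adjusted p was 0.011, and with the lines as a block in the 15 totalx2 libraries it was 0.022. Over the whole list the median fall was 1.70 in line 1, 1.63 in line 2 and 0.70 in line 3.

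Contractile and matrix-signal genes followed in part. Of 14 muscle genes 7 were lower and 1 higher (median -0.53): the smooth-muscle actin Acta2 fell from 124 ± 30 to 55.2 ± 21.8 CPM (adjusted p = 0.012), Tagln from 44.2 ± 10.6 to 17.2 ± 10.0 CPM and the myosin light chain Myl9 from 33.8 ± 13.1 to 8.56 ± 4.02 CPM. Without line 2 of day 8 only 1 of the 14 was lower, without line 1 of day 10 only 2, and without line 2 of day 10 only 4. The adjusted p of Acta2 without line 1 of day 10 was 0.067 and that of Tagln 0.060. The exception was Des, desmin, which rose from 0.60 ± 0.12 to 2.31 ± 0.63 CPM. Of 20 TGF-beta, activin and BMP genes 6 were lower and 2 higher. The ligand Tgfb2 was at 17.6, 29.1 and 28.7 CPM and then 4.58, 8.76 and 14.3 CPM (-1.44 ± 0.35, adjusted p = 0.0065), and the matrix protein Thbs1 fell by 1.71. Skil, a negative regulator of SMADs, rose by 0.74. Leaving out line 1 or 2 of day 10 or line 3 of day 8 left 3 of these 20 genes lower.

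Epithelial genes rose. Of 24 tested members 18 were higher and none lower, with a median of 1.16, and 13 to 20 were higher under the alternatives. The adhesion protein Epcam was at 78.4, 58.3 and 108 CPM at day 8 and 201, 170 and 149 CPM at day 10, with no overlap (1.09 ± 0.17, adjusted p = 0.00023). Cdh1, E-cadherin, already stood high at 245, 218 and 323 CPM and rose to 422, 405 and 357 CPM (0.59 ± 0.12, adjusted p = 0.0026); with the lines as a block in the 6 libraries alone its adjusted p was 0.060. Line 3 was highest at day 8 and lowest at day 10 for both genes. Regulators of the epithelial programme rose from low levels. The splicing factor Esrp1 was at 5.73, 5.34 and 11.2 CPM and then 31.4, 28.0 and 22.9 CPM (1.89 ± 0.22, adjusted p = 3.18e-05). Grhl2, a transcription factor of epithelial junction genes, was at 2.07, 1.03 and 3.99 CPM and then 10.5, 6.81 and 7.41 CPM (1.80 ± 0.30, adjusted p = 0.00044). The tight-junction claudin Cldn6 was at 3.94, 1.95 and 5.33 CPM and then 28.9, 12.9 and 15.2 CPM (2.34 ± 0.40, adjusted p = 0.00060), and the membrane protease St14 rose by 1.36. Among the members that did not pass the test were Cldn3, Dsp, Elf3, Krt8 and Ocln; the keratin Krt8 was at 13.4, 6.99 and 29.7 CPM and then 40.9, 17.1 and 35.8 CPM, so the days overlapped. Under the block of lines in the 15 totalx2 libraries Krt8 and Ocln were called higher (adjusted p = 0.035 and 0.012) and Cldn3 lower (-0.68, adjusted p = 0.016).

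**Figure D3:**
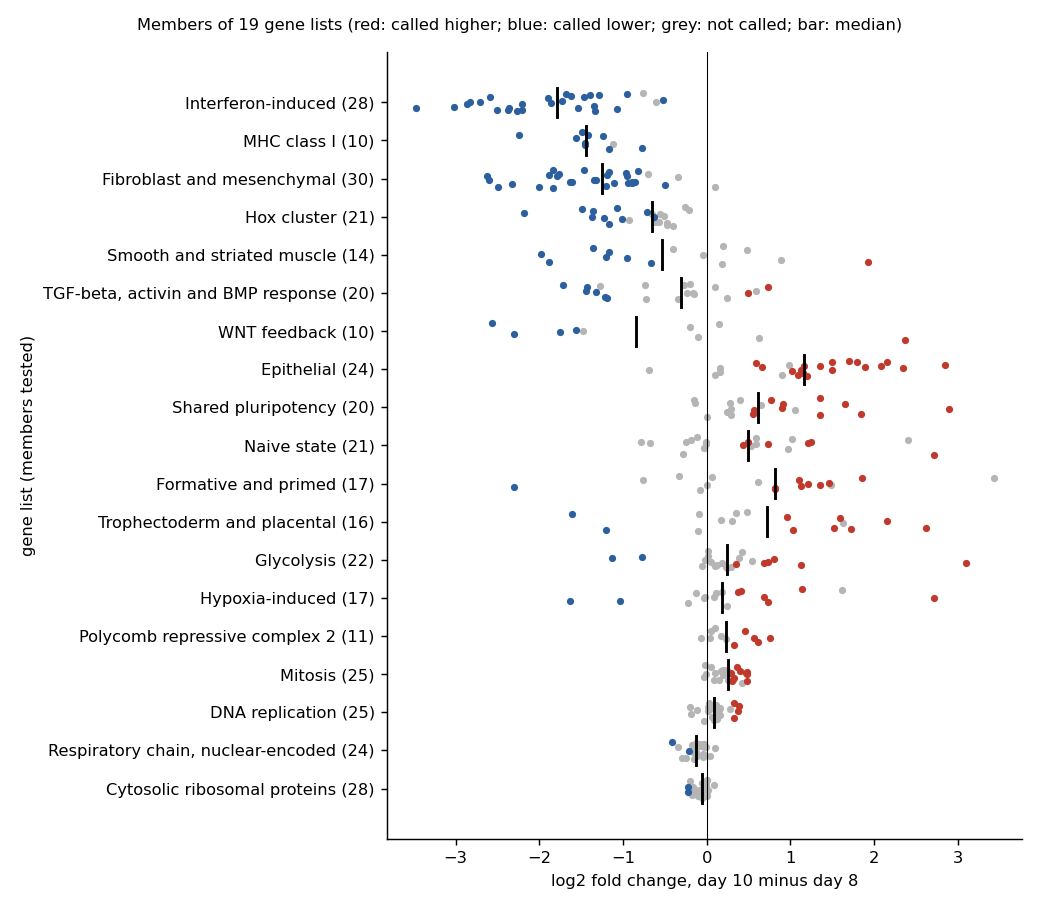
Log2 fold change, day 10 minus day 8 (horizontal axis), of every tested member of 19 gene lists (rows, with the number tested), red for called rises, blue for called falls and grey for genes not called, with a bar at the list's median. The interferon, MHC class I and fibroblast lists lie almost wholly left of 0 and the epithelial list right of it, with medians of -1.79, -1.44, -1.26 and 1.16.

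The pluripotency network was divided. Of 20 genes shared by pluripotent states 10 were higher and none lower (50% called, median 0.61). Of 21 genes of the naive state 6 were higher and none lower (28.6% called, median 0.49), against 20.7% called over all genes tested. Line 3 moved least: the medians of lines 1, 2 and 3 were 0.725, 0.886 and 0.179 for the shared genes. For the naive genes they were 0.57, 0.417 and 0.028. Without line 1 of day 8, 2 naive genes were lower. With the lines as a block, or without line 3 of day 10, 1 was lower. Esrrb, a nuclear receptor of the naive network, had the largest rise of these called members above 10 CPM: 7.33, 6.27 and 13.9 CPM at day 8 and 80.3, 55.2 and 45.0 CPM at day 10 (2.72 ± 0.25, adjusted p = 2.71e-06). Its day 10 mean of 60.2 ± 18.1 CPM stood beside 394 CPM in GFP+ cells of day 10 and 697 CPM in wild-type iPSCs (means of 3 libraries). Tdgf1, the Nodal co-receptor, was at 17.2, 15.3 and 24.2 CPM and then 69.6, 84.7 and 49.0 CPM (1.84 ± 0.21, adjusted p = 3.18e-05). The chromatin factor Utf1 rose from 19.9 ± 10.3 to 62.6 ± 12.9 CPM (1.66 ± 0.24, adjusted p = 0.00014), with an adjusted p of 0.055 under the block of lines in the 6 libraries alone. Fgf4, the autocrine growth factor of pluripotent cells, was at 23.2, 15.9 and 36.2 CPM and then 70.3, 56.5 and 65.6 CPM (1.35 ± 0.20, adjusted p = 0.00021). Sall4, a partner of Pou5f1, was at 54.3, 38.1 and 67.6 CPM and then 111, 98.5 and 91.4 CPM (0.91 ± 0.14, adjusted p = 0.00023). Lin28a, which blocks let-7 maturation, stayed low but rose from 1.05 ± 0.35 to 2.72 ± 1.08 CPM.

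The factors that define the network did not pass the main test. Nanog was at 98.8, 69.9 and 103 CPM and then 120, 117 and 95.6 CPM, and the days overlapped (0.29 ± 0.15, adjusted p = 0.17). Pou5f1 was at 345, 280 and 304 CPM and then 451, 361 and 323 CPM, also with overlap (0.29 ± 0.16, adjusted p = 0.24); with the lines as a block in the 15 totalx2 libraries its adjusted p was 0.012. Klf4 was level at 526 ± 16 and 525 ± 66 CPM, with a difference of -0.00 ± 0.13. The labels do not say how reprogramming was induced, so whether delivered copies of Pou5f1, Klf4 or Myc add to these counts is unknown. The late markers Zfp42 and Dppa3 were near the limit of detection, at 0.57 ± 0.08 and 1.16 ± 0.57 CPM and at 1.57 ± 0.95 and 1.45 ± 0.60 CPM. Neither was called.

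Genes of the formative state, which follows the naive one in the embryo, gave 8 higher and 1 lower of 17 (median 0.82). Their median change was 0.731 in line 1, 1.232 in line 2 and 0.209 in line 3. The formative genes include the Nodal pathway: the ligand Nodal rose from 12.8, 11.1 and 17.5 CPM to 35.4, 31.5 and 28.6 CPM (1.21 ± 0.18, adjusted p = 0.00020). Its targets and inhibitors Lefty1 and Lefty2 rose by 1.13 and 1.86. Pou3f1, a POU factor of the formative state, was at 10.99, 11.1 and 10.2 CPM and then 32.3, 30.2 and 26.8 CPM (1.47 ± 0.27, adjusted p = 0.00093). The ERK phosphatase Dusp6, itself induced by ERK signalling, was at 81.8, 65.9 and 95.2 CPM and then 193, 186 and 143 CPM (1.10 ± 0.14, adjusted p = 5.88e-05), and the ETS factor Etv5 rose by 0.82. The member that fell was Lef1, a WNT effector, from 3.54 ± 0.76 to 0.71 ± 0.27 CPM. Otx2 was at 0 CPM in every day 8 library and at 0.16, 0.089 and 0.084 CPM at day 10, and was not called.

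Among the DNA methylation and demethylation genes, 4 of 21 were higher and none lower (median 0.01). That is 19% called, near the 20.7% over all genes tested. Tet1, which oxidises 5-methylcytosine, was at 101, 82.3 and 102 CPM and then 264, 244 and 193 CPM, with no overlap (1.30 ± 0.16, adjusted p = 4.01e-05). It was the only TET enzyme called: Tet2 was at 101 ± 13 and 93.6 ± 5.2 CPM (-0.11 ± 0.19, adjusted p = 0.76) and Tet3 at 93.4 ± 7.7 and 87.8 ± 8.7 CPM (-0.09 ± 0.11, adjusted p = 0.63). The strain carries a Tet1 allele, so Tet1 counts may include its product. Zfp57, which protects imprinted marks, was at 30.7, 30.7 and 32.4 CPM and then 83.6, 72.2 and 60.8 CPM (1.21 ± 0.12, adjusted p = 3.76e-06). Among the de novo methyltransferases Dnmt3b rose from 37.95, 35.8 and 59.3 CPM to 82.0, 84.4 and 68.6 CPM (0.82 ± 0.14, adjusted p = 0.00058), with an adjusted p of 0.061 under the block of lines in the 6 libraries alone. Dnmt3a was at 137 ± 3 and 143 ± 14 CPM, and the cofactor Dnmt3l was below 0.4 CPM in all 6 libraries; neither was called.

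Of 11 genes of Polycomb repressive complex 2, which methylates lysine 27 of histone H3, 5 were higher and none lower (median 0.24). The accessory subunit Jarid2 was at 135, 115 and 121 CPM and then 209, 194 and 166 CPM (0.62 ± 0.11, adjusted p = 0.00052). The core subunit Eed rose by 0.56 and the accessory Phf19 by 0.76, while the catalytic Ezh2 was at 116 ± 14 and 131 ± 2 CPM and was not called. Leaving out line 1 of day 10, or line 2 or 3 of day 8, left 3 members higher.

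Trophectoderm and placental genes gave 7 higher and 2 lower of 16 (median 0.73). The 2 lower were Peg10 (-1.20) and Nrk (-1.61), both kept under all the alternatives. Tfap2c, a factor of trophoblast and germ cells, was at 26.9, 24.4 and 29.8 CPM and then 54.0, 60.2 and 52.2 CPM (1.04 ± 0.14, adjusted p = 0.00010). Eomes, a T-box factor of trophoblast stem cells, was at 2.91, 3.08 and 3.28 CPM and then 12.3, 9.65 and 6.06 CPM (1.59 ± 0.26, adjusted p = 0.00039), and Ascl2, an imprinted factor of the placenta, was at 4.88, 3.80 and 4.50 CPM and then 16.4, 16.1 and 11.2 CPM (1.72 ± 0.25, adjusted p = 0.00015). Gata3, Tfap2a and Elf5 were not called, though Elf5 was with the block of lines in the 15 totalx2 libraries (1.64, adjusted p = 0.045). Elf5 was under 1 CPM in all 6 libraries.

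Imprinted genes, read from 1 parental copy, numbered 30 tested, 9 of them lower and 4 of them higher, with a median of -0.04. Peg10, a retrotransposon-derived gene of the placenta, was the most abundant one called apart from Gnas, at 726, 592 and 716 CPM and then 277, 334 and 274 CPM (-1.20 ± 0.20, adjusted p = 0.00042). The growth inhibitor Cdkn1c was at 155, 244 and 173 CPM and then 35.0, 76.4 and 88.5 CPM (-1.52 ± 0.33, adjusted p = 0.0036), and Plagl1, a zinc-finger factor, fell by 1.499, Mest by 1.01 and Ndn by 1.28. The rises included Ascl2, Phlda2 and Zdbf2, a gene of the paternal allele; Zdbf2 went from 24.05, 27.3 and 30.5 CPM to 66.8, 66.4 and 75.0 CPM (1.35 ± 0.32, adjusted p = 0.0067). With the lines as a block in the 15 totalx2 libraries 9 members were higher. The H19, Igf2 and Meg3 transcripts were not called; without line 3 of day 10, H19 and Igf2 were (adjusted p = 0.046 and 0.0034, both lower).

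Glycolysis genes rose in part: 6 of 22 were higher and 2 lower (median 0.24). The count higher was 9 with the lines as a block in the 15 totalx2 libraries, 12 with the block in the 6 libraries alone and 11 in those libraries with no block. Slc16a3, which exports lactate, had the largest rise among the genes named by rule: 3.57, 2.26 and 4.10 CPM at day 8 and 25.6, 27.7 and 32.5 CPM at day 10 (3.10 ± 0.43, adjusted p = 0.00012). The glucose transporter Slc2a1 was at 75.0, 64.4 and 74.3 CPM and then 150, 158 and 161 CPM (1.13 ± 0.14, adjusted p = 3.96e-05), and Pdk1, which holds pyruvate out of mitochondria, was at 85.3, 73.5 and 78.1 CPM and then 143, 128 and 123 CPM (0.73 ± 0.10, adjusted p = 0.00013). Between these ends of the pathway the enzymes Gapdh, Ldha, Pgk1 and Aldoa were not called in the main test. Gapdh was called with the block of lines in the 15 totalx2 libraries (0.56, adjusted p = 0.024). Pgk1 and Aldoa were called with the block in the 6 libraries alone. Pfkfb3, which makes the activator of phosphofructokinase, fell by 0.78. Of 17 hypoxia-induced genes 6 were higher and 2 lower (median 0.18): Ankrd37 rose from 0.88 ± 0.38 to 5.94 ± 0.30 CPM and the prolyl hydroxylase Egln3 from 19.8 ± 2.3 to 43.9 ± 9.2 CPM, while the peptide Adm fell from 12.1 ± 3.8 to 3.88 ± 1.30 CPM and Vegfa was not called. Of 24 nuclear genes of the respiratory chain 2 were lower, and 2 of 28 ribosomal protein genes; with the lines as a block these counts were 7 and 6 in the 15 totalx2 libraries and 4 and 1 in the 6 libraries alone. Under RLE scaling or library totals they were 1 and 0, and leaving out any 1 of the 6 libraries gave 1 and at most 1.

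Proliferation genes moved little. Of 25 mitosis genes 9 were higher and none lower, with a median of 0.26, and the largest called change was 0.48. Without line 1 of day 10 or without line 2 of day 8 only 3 were called, without line 2 of day 10 only 4, and with the lines as a block in the 15 totalx2 libraries 17 were. Of 25 DNA replication genes 4 were higher (16% called against 20.7% of all genes tested, median 0.09), and none without line 1 of day 10 or line 2 of day 8. The proliferation marker Mki67 was at 803, 813 and 773 CPM and then 933, 945 and 836 CPM (0.18 ± 0.20, adjusted p = 0.57; 0.027 with the block). The inhibitors Cdkn1a and Cdkn2a, barriers to reprogramming, were at 265 ± 15 and 213 ± 8 CPM and at 67.8 ± 6.2 and 79.1 ± 8.9 CPM (adjusted p = 0.065 and 0.26); with the lines as a block in the 15 totalx2 libraries these p were 0.019 and 0.0095. Of 22 p53 targets and inhibitors 4 were higher and 2 lower (27.3% called). Mdm2, the ligase that degrades p53, was at 187 ± 12 and 300 ± 23 CPM (0.68 ± 0.14, adjusted p = 0.0025). Leaving out line 1 or 2 of day 10, or line 2 or 3 of day 8, gave 2 higher and 1 lower of these 22, and without line 1 of day 8 1 was lower.

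Of 21 Hox genes 10 were lower and none higher (median -0.65). The median change was -0.715 in line 1, -0.968 in line 2 and -0.512 in line 3. Fewer passed the test with a library left out: 1 was lower without line 2 of day 10, 5 without line 1 of day 10 or line 2 or 3 of day 8, and 6 without line 1 of day 8. Hoxd9 was at 7.89, 5.14 and 7.58 CPM and then 3.85, 2.12 and 3.20 CPM (-1.16 ± 0.37, adjusted p = 0.031; 0.14 without line 2 of day 10). Of 10 WNT feedback genes 4 were lower and 1 higher. By line, the median changes were -0.315, -0.061 and -0.48, so line 2 hardly moved. The riser was Wnt7b (2.37, adjusted p = 0.013), which was not called without line 2 of day 8. Nkd1, which restrains Dishevelled, was at 4.04, 5.14 and 3.07 CPM and then 0.49, 0.97 and 0.59 CPM (-2.56 ± 0.31, adjusted p = 3.96e-05). Axin2, the standard WNT target, was at 5.35, 5.24 and 4.71 CPM and then 0.90, 1.59 and 2.69 CPM (-1.56 ± 0.30, adjusted p = 0.0012). Of the surface markers used to sort intermediates 5 of 18 were higher and 4 lower. Among the rises, Ceacam1 went up by 1.62 and Fut9 by 1.35. The receptor Kit was at 44.7, 48.7 and 51.9 CPM and then 25.6, 35.7 and 25.6 CPM (-0.74 ± 0.13, adjusted p = 0.00062).

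The remaining lists had few called members, or calls in both directions, where 20.7% of all genes tested were called. The immediate-early (21.1%) and YAP and TEAD (23.5%) lists lay near that share. The keratinocyte (33.3%), leukocyte (35.7%), endoderm (40%) and endothelial (44.4%) lists lay above it, with 9 to 14 genes tested in each. Of 24 genes of the integrated stress response 1 was called, of 24 cholesterol synthesis genes 1, of 15 neuronal genes 1, of 13 heat shock genes 2, of 8 mitochondrially encoded genes 1 and of 25 germline genes 3. Immediate-early genes gave 2 higher and 2 lower of 19, keratinocyte genes 3 higher of 9, endothelial genes 3 higher and 1 lower of 9, endoderm genes 1 higher and 3 lower of 10, and YAP and TEAD targets 4 lower of 17. Without line 1 of day 10 or line 2 of day 8, 0 endoderm genes were lower, and 1 YAP or TEAD target was lower without either of these or without line 2 of day 10. Without line 2 of day 10, no mitochondrially encoded gene was called, and most of these small counts moved by 1 or more as libraries were left out. Among 14 leukocyte genes 4 fell and 1 rose, and only 1 fell without line 1 of day 10 or line 2 of day 8. The riser, Laptm5, a lysosomal membrane protein, was at 149, 125 and 135 CPM and then 292, 259 and 210 CPM (0.89 ± 0.14, adjusted p = 0.00022), a level far above the other leukocyte markers.

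Outside these lists, the rule for the largest changes named further genes with no overlap between days. Ngfr, a neurotrophin receptor, was at 23.6, 28.4 and 35.6 CPM and then 121, 119 and 91.5 CPM (1.92 ± 0.17, adjusted p = 1.98e-06). Myrf, a membrane-bound transcription factor, was at 11.7, 7.81 and 12.9 CPM and then 48.7, 44.6 and 39.5 CPM (2.04 ± 0.14, adjusted p = 2.36e-07). Crmp1, a cytoskeletal regulator of axon growth, was at 3.29, 2.26 and 2.66 CPM and then 16.5, 21.9 and 11.5 CPM (2.59 ± 0.26, adjusted p = 5.50e-06). Absence of overlap was a condition of this rule, so for these 3 genes it is no separate result. The falls on the same rule were mostly secreted and matrix genes. Sfrp2, a secreted WNT modulator, was at 47.6, 98.8 and 95.3 CPM and then 6.96, 11.5 and 10.9 CPM (-3.04 ± 0.28, adjusted p = 3.10e-06). Igfbp5, which binds insulin-like growth factors, was at 398, 667 and 424 CPM and then 15.4, 81.9 and 88.9 CPM (-3.00 ± 0.54, adjusted p = 0.0012). The growth factor Igf1 itself fell by 2.72 and the proteoglycan Ogn by 2.87.

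The next interval, day 10 to day 12, shares its day 10 libraries with the first, so a low or high draw at day 10 moves both. Between day 10 and day 12 28.1% of genes were called, 2441 higher and 1822 lower. The difference of the 2 changes was itself called for 3331 genes (21.9%), 1455 with the first change more positive and 1876 with it more negative, and for 1106 without line 1 of day 10 and 1612 without line 2 of day 10. With the lines as a block in the 15 totalx2 libraries it was called for 6143. The title of the line 2 library of day 12 lacks the mCherry mark that the other lines carry.

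Values of the same genes on both sides follow. Col1a1 went from 1189 ± 585 CPM at day 10 to 2517 ± 504 CPM at day 12 (1.08, adjusted p = 0.021), and its change before day 10 was lower than that after it by 3.08 on the log2 scale (adjusted p = 0.0027). Acta2 went from 55.2 ± 21.8 to 307 ± 44 CPM and Tagln from 17.2 ± 10.0 to 141 ± 29 CPM, both above their day 8 means. Of 30 fibroblast genes 18 rose in this interval, of 28 interferon genes 5 and of 10 MHC class I genes 5. Over all genes tested 2441 of 15197 rose, a share close to that of the interferon genes. Ifit1 was at 8.498 ± 5.38 and 11.4 ± 1.5 CPM (0.41, adjusted p = 0.46), Irf7 at 8.98 ± 4.02 and 9.81 ± 2.34 CPM (adjusted p = 0.83). Epcam was at 174 ± 26 and 191 ± 35 CPM (adjusted p = 0.58) and Esrrb at 60.2 ± 18.1 and 85.2 ± 14.8 CPM (adjusted p = 0.087). Dnmt3b went from 78.3 ± 8.5 to 34.0 ± 4.0 CPM (-1.21, adjusted p = 2.71e-05) and Tet1 from 234 ± 36 to 179 ± 19 CPM (adjusted p = 0.074).

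**Figure D4:**
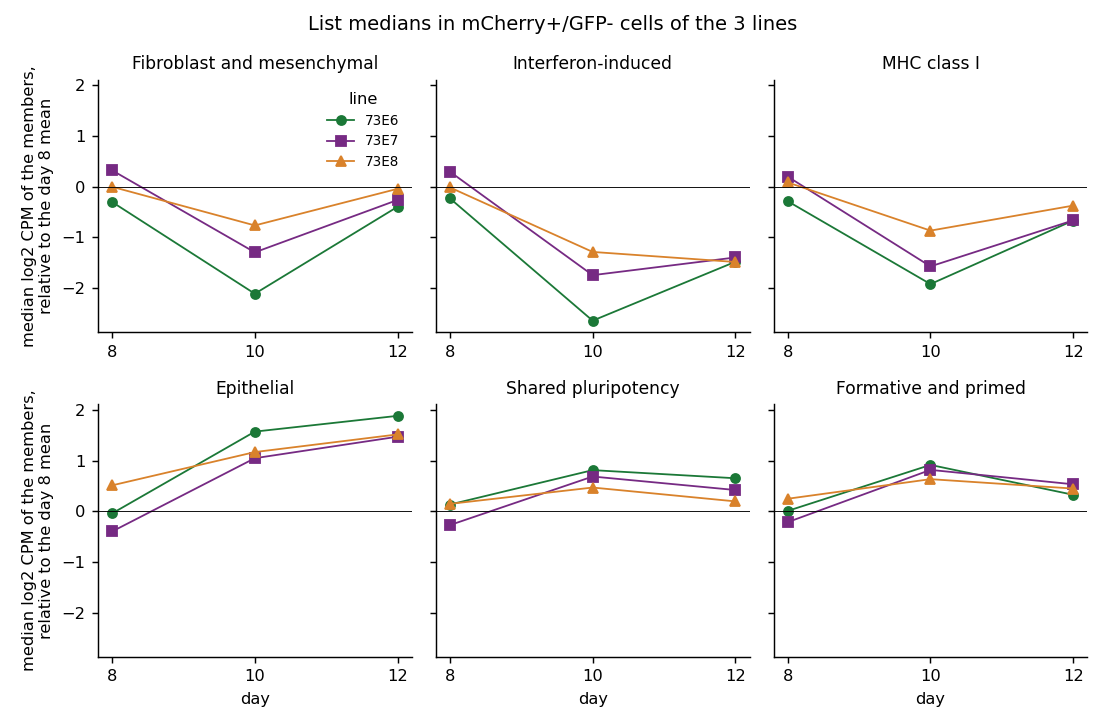
Median log2 CPM of the members of 6 gene lists relative to the list's day 8 mean (vertical axis), against day, 1 point per library, lines joined by colour and symbol. All 3 lines are lower at day 10 than at day 8 in the fibroblast, interferon and MHC class I lists, by least in line 3, and higher in the epithelial, shared pluripotency and formative lists.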

How the data were processed

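RNA was polyA-selected and made into stranded libraries from sorted cells, per the labels' protocols. The values used are raw counts per gene that the authors deposited; HISAT2 2.1.0, featureCounts 1.5.3, DESeq2 1.18.1 and build mm10 are named in the submitters' processing notes. The table with the totalx2 libraries lists 48321 gene names for 21 libraries in 7 groups. These are the totalx2 groups, wild-type iPSC clonal lines and Tet1 knockout iPSC clonal lines. Here edgeR 4.0.16 in R 4.3.3 was fitted to all 21 libraries (robust quasi-likelihood, TMM scaling, filterByExpr), so that all 7 groups share 1 estimate of spread, with Benjamini-Hochberg adjustment over 15197 genes at 0.05. Genes were named where they were among the 15 largest rises or falls with a mean of 10 CPM or more on the higher day and days that did not overlap, among the 4 called members of a list with the smallest p, called against their list's majority, or on a fixed set; further list members were named after their values were seen. The 35 gene lists and the comparison were chosen with earlier results of these data known. Libraries of 1 line come from the same line, per the labels; deviations from the group means correlated at 0.412, 0.266 and 0.215 within lines and at -0.389 to 0.165 between lines. The lines were modelled as a block in an alternative. The p-values rest on the spread between libraries of a group, which for totalx2 are 3 lines, shared over the 7 groups. Fibroblasts of the other table were normalised separately and are not compared. The fitting code was tested on simulated counts. Alternatives covered scaling, filters, DESeq2 1.42.0, the libraries fitted, the block, a fold threshold and leaving out each library; a wild-type iPSC library with 12.2% mitochondrial counts was left out in an alternative chosen after seeing the data. Promoter windows came from RefSeq on GRCm38.p6, matched by symbol for 10793 tested genes. Results for a few genes are not reported here.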

Additional observations from a re-analysis of the deposited data

Results flagged for a closer look

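For 6 of the genes with the largest changes the interval from day 8 to day 10 and the interval from day 10 to day 12 were both called, in opposite directions, and the difference of the 2 changes was itself called by edgeR. The intervals share the day 10 libraries, so a high or low level there moves both changes. Opposite changes add up in their difference, so its call is no separate support. The genes were also picked for large first changes, which favours an apparent reversal. Crmp1, the cytoskeletal regulator, was at 2.74 ± 0.52, 16.6 ± 5.2 and 5.78 ± 1.45 CPM on days 8, 10 and 12, a difference of 4.13 on the log2 scale. Lefty2, the Nodal inhibitor, was at 3.25 ± 0.97, 11.8 ± 2.8 and 3.77 ± 1.42 CPM (difference 3.56). Myrf was at 10.8 ± 2.7, 44.3 ± 4.6 and 27.4 ± 1.8 CPM (difference 2.72) and Ngfr at 29.2 ± 6.1, 111 ± 17 and 71.1 ± 8.5 CPM (difference 2.56). Ogn, the proteoglycan, was at 254 ± 76, 34.7 ± 23.01 and 90.4 ± 9.3 CPM (difference -4.25) and the LIM-domain binder Ldb2 at 13.8 ± 6.5, 1.504 ± 1.11 and 3.89 ± 0.11 CPM (difference -4.56). At day 12 Lefty2 stood near its day 8 level, while Ngfr and Myrf stayed above theirs and Ogn and Ldb2 below theirs.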

How the results depend on the processing

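The counts of 1519 higher, 1628 lower and 3331 genes with a called difference between intervals depended on the libraries fitted. With the replicate block on the 15 totalx2 libraries they were 2625, 2698 and 6143, and with the block on the libraries of the contrast alone the last was 5672. Without the wild-type iPSC library with the most mitochondrial reads, chosen after seeing the data, they were 2492, 2164 and 5215. Asking for an absolute log2 fold change of at least 1 left 493 and 812. Leaving out 1 library at a time gave 870 to 1632 higher, 759 to 1823 lower and 1106 to 3906 differences. The cause was not tested. RLE scaling, library totals, both other filters, the contrast's libraries alone and DESeq2 kept all 3 counts within 1.5 times. Of the 3147 called genes, 2957 were also called by DESeq2, 3103 with the replicate block on 15 libraries and 1344 under all 15 alternatives of the fit. Of 245 genes followed one by one, a single gene among those called with all libraries changed direction (genes not called, such as S100a4 and Dppa3, also changed sign): mt-Co2, 2.26 with all libraries, ranged from -0.10 to 2.78 as 1 library was left out, the lowest without line 2 of day 10, which alone held 23.5 CPM. Beyond the calls given with the results, the block on 15 libraries ended the call of mt-Co2 (adjusted p = 0.14) and changed no other call of a gene the results describe. On the 6 libraries alone the block added Aldoa and Pgk1 (adjusted p = 0.030 and 0.020).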

Other observations

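Members of a few families were looked at after their values were seen, so their counts are descriptions. Of the 7 insulin-like growth factor binding proteins 6 were tested: Igfbp3, Igfbp4, Igfbp5, Igfbp6 and Igfbp7 were lower and Igfbp2 higher. Igfbp4 was at 158, 294 and 325 CPM at day 8 and 25.5, 64.2 and 78.7 CPM at day 10 (-2.21 ± 0.36, adjusted p = 0.00049), and Igfbp7 at 50.4, 76.5 and 66.7 CPM and then 9.42, 19.2 and 28.0 CPM (-1.77 ± 0.33, adjusted p = 0.00094). Neither overlapped between days. Igfbp2 rose from 13.9 ± 3.1 to 24.8 ± 1.8 CPM (adjusted p = 0.013; 0.077 without line 2 of day 8), and Igfbp3 missed the threshold without any of 4 libraries (adjusted p = 0.075 to 0.094).

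All 6 tested Sprouty and Spred genes, feedback inhibitors of ERK signalling, were higher. Spry4 was at 56.5, 39.3 and 74.3 CPM and then 137, 124 and 126 CPM (1.18 ± 0.20, adjusted p = 0.00047), and Spred2 at 93.6, 96.4 and 112 CPM and then 136, 136 and 132 CPM (0.42 ± 0.09, adjusted p = 0.0020). The other 4 rose by 0.30 to 0.70 and each lost its call without at least 1 library. The ERK phosphatase Dusp4 rose from 15.5 ± 3.6 to 29.6 ± 2.4 CPM (0.93 ± 0.17, adjusted p = 0.00071).

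Also picked after their values were seen were 4 interferon-inducible GTPases that are not on the interferon list. Irgm1 was at 64.8, 87.1 and 70.7 CPM and then 9.83, 15.8 and 24.99 CPM (-2.14 ± 0.28, adjusted p = 6.61e-05), Irgm2 fell by 2.101, Iigp1 by 2.43 and Gbp7 by 2.21. Of the 7 class 3 semaphorins, secreted guidance cues, 4 were lower. Sema3c was at 70.7, 106 and 64.7 CPM and then 3.68, 15.8 and 21.5 CPM (-2.56 ± 0.50, adjusted p = 0.0016).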
